A study of Mus musculus with 4 samples.

Results

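The Hes, Hey and Id repressors are helix-loop-helix proteins that hold back differentiation, and 10 of their genes were followed here in mouse cerebral cortex: Hes1, Hes5, Hes6, Hey1, Hey2, Heyl, Id1, Id2, Id3 and Id4. They were chosen by symbol, and all 10 were found among the 13289 genes of the deposited count table. RNA-seq of polyadenylated RNA covered 2 control libraries, titled WT, and 2 libraries titled Lhx2cKO, all from cortex at embryonic day 15. The groups are called control and Lhx2 cKO, with cKO read as conditional knockout of Lhx2, the gene of a LIM-homeodomain transcription factor of cortical progenitors. The labels used here name no Cre driver, allele, litter, sex or pooling, so which cells lost the gene is not known, and no treatment is given for either group.

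In the embryonic cortex, Notch receptors on radial glia, the neural stem cells, are cut when a neighbouring cell presents a Delta or Jagged ligand, and the released fragment joins the DNA-binding protein Rbpj to switch on Hes and Hey genes. Hes and Hey proteins bind DNA, recruit TLE corepressors and hold down proneural genes such as Neurog2. Bone morphogenetic proteins (BMPs) act through Smad proteins to switch on Id genes, whose products lack a DNA-binding basic region and instead tie up the E proteins that proneural factors need as partners. Hes6 is an exception among the Hes genes, being known to oppose Hes1 and to favour neuronal differentiation. Several of these genes, among them Id1, Id3, Hey1, Hey2 and Heyl, are also known from blood vessels.

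The RefSeq promoter table (GRCm38.p6) held 6 of the 10 members, with 7 start sites, and its entries were matched by symbol. No entry was matched for Hes1, Hey1, Heyl or Id1. The 250 bases before the start were searched on both strands for GTGGGAA, the core letters of an Rbpj site, and for GGCGCC, a GC-rich Smad site of BMP target genes. Printed here are the promoters of Hes5 and Hey2, the members with an Rbpj-type match, and of Id3 and Id4, the Id genes that differed between the groups in opposite directions. Capitals mark either of these motifs, and the Rbpj-type motif reads TTCCCAC where it lies on the other strand.
Hes5: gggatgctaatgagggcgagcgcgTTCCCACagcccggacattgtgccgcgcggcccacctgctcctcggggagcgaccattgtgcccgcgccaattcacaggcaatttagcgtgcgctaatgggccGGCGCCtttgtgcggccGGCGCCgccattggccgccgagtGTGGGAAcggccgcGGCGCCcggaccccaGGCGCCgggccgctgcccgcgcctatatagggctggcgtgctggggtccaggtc
Hey2: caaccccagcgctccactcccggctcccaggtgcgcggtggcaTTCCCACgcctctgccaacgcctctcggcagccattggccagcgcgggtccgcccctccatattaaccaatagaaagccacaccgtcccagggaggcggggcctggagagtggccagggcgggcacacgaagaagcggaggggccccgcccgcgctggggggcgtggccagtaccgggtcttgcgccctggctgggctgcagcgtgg
Id3: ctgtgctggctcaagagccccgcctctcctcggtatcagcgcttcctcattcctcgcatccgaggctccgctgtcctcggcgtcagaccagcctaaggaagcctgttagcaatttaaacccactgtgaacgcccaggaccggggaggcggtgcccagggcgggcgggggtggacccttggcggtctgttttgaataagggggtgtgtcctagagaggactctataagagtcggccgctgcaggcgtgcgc
Id4: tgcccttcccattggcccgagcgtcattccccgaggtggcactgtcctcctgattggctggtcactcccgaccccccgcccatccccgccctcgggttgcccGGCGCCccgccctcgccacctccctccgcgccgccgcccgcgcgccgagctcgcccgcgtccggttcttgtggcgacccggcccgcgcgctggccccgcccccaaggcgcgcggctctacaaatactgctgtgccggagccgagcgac
The Hes5 sequence is chr4:154960673-154960922 on the plus strand, Hey2 chr10:30842784-30843033 on the minus strand, Id3 chr4:136143572-136143821 on the plus strand and Id4 chr13:48260866-48261115 on the plus strand. Hes5 held 2 Rbpj-type motifs, starting 226 and 83 bases before the start, and 4 GGCGCC motifs. Hey2 held 1 Rbpj-type motif, 207 bases before the start, and Id4 held 1 GGCGCC motif, 148 bases before it. Neither motif was found in the Id3 window, and the windows not printed held 1 GGCGCC in Id2 and neither motif in Hes6. The starts are those of RefSeq. In the GENCODE M21 annotation the genes Id3 and Id2 begin further upstream, so both windows lie inside them, as does that of start site 2 of Hes6. The absence of a motif therefore holds for these windows only. Of all 32851 windows of this length in the table, 5.42% held GTGGGAA, 0.161% held it 2 or more times, and 9.59% held GGCGCC. The Hes5 and Hey2 windows were 71.6% G and C, Id3 62.8% and Id4 75.6%, against a median of 52.4% over all windows. These matches describe the letters only, and no binding was measured.

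Total counts per library ranged from 22294237 to 24609627, and 3 counts, used as a detection floor, equal 0.12 to 0.132 CPM. CPM are counts brought to a common library total, here with the trimmed mean of M-values (TMM). Lhx2 itself was at 316 and 287 CPM in control, and Lhx2 cKO libraries had 239 and 247 CPM, or 80.7% of the control mean. By edgeR's quasi-likelihood test its log2 fold change, always given as Lhx2 cKO over control, was -0.31 (SE 0.0976, adjusted p 0.0191), the direction of the knockout label. Counts over the whole gene cannot show whether the remaining transcript was intact, so they do not measure how complete the knockout was. The call of Lhx2 was lost without control 1 (-0.25), without Lhx2 cKO 1 (-0.28) and without Lhx2 cKO 2 (-0.34). Over all 13288 genes tested, 20.8% were called at an adjusted p under 0.05, 11.6% higher and 9.17% lower in Lhx2 cKO. The labels do not say whether the libraries of a group come from separate embryos, so p-values measure only the spread between these libraries, which may be technical.

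Levels were compared between genes as CPM per kilobase of the deposited gene length. In control cortex Id2 and Hes6 stood far above the rest, with means of 83.1 and 82 CPM per kilobase, near the 97.1 percentile of all genes tested. Their control libraries overlapped, at 81.9 and 84.2 for Id2 against 88.9 and 75.1 for Hes6. Id4 followed with a level of 15.7 CPM per kilobase and Id1 with 5.97, where the median of all genes was 5.78. The levels of Id3 (3.80), Hey1 (3.62) and Hes1 (3.46) CPM per kilobase were neighbours whose control libraries overlapped in turn. Hes5, one of the classical Notch targets of radial glia, was lower at 2.80 CPM per kilobase, the 32.6 percentile of all genes. Heyl at 1.19 and Hey2 at 0.394 CPM per kilobase were the lowest. Hes6 made up 86.9% to 88.5% of the summed per-length level of the 6 Hes and Hey genes in every library, and Id2 75.5% to 81.3% of that of the 4 Id genes, so a sum over either arm mostly follows 1 gene.

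**Figure D1:**
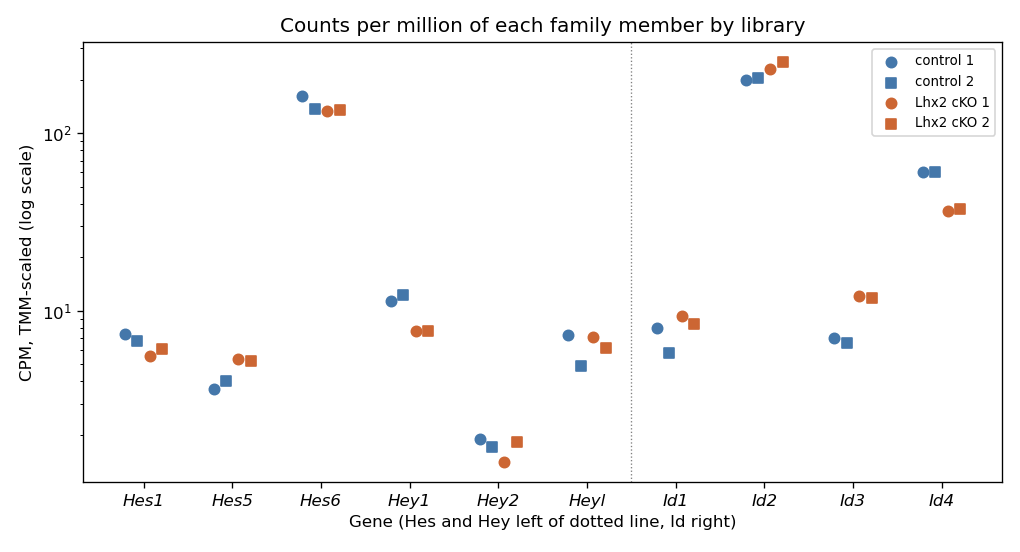
Level of each of the 10 genes in each library, in TMM-scaled CPM on a log axis, with control in blue, Lhx2 cKO in orange, replicate 1 as circles and replicate 2 as squares. For Hey1, Id3 and Id4 the 2 groups stand clear of each other, while for Hey2 and Heyl they overlap.

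Neither arm moved as a block between control and Lhx2 cKO cortex. Of the 6 Hes and Hey genes, Hey1 fell and the other 5 did not pass the threshold. Of the 4 Id genes, Id3 rose, Id4 fell, and Id1 and Id2 did not pass. All 10 genes passed the filter on low counts and were tested, so 1 of 6 Hes and Hey genes and 2 of 4 Id genes were called, beside 20.8% of all genes. The median log2 fold change was -0.15 over the Hes and Hey genes and 0.31 over the Id genes, beside 0.003 over all genes. Library values did not overlap between the groups for 4 of the 6 Hes and Hey genes (3 lower, 1 higher in Lhx2 cKO) and all 4 Id genes (3 higher, 1 lower), beside 59.3% of all genes tested, 30.2% higher and 29.1% lower. With so few members these shares carry no test. In bulk tissue, fewer cells of a type and less RNA per cell cannot be told apart, and this holds for each gene described.

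**Figure D2:**
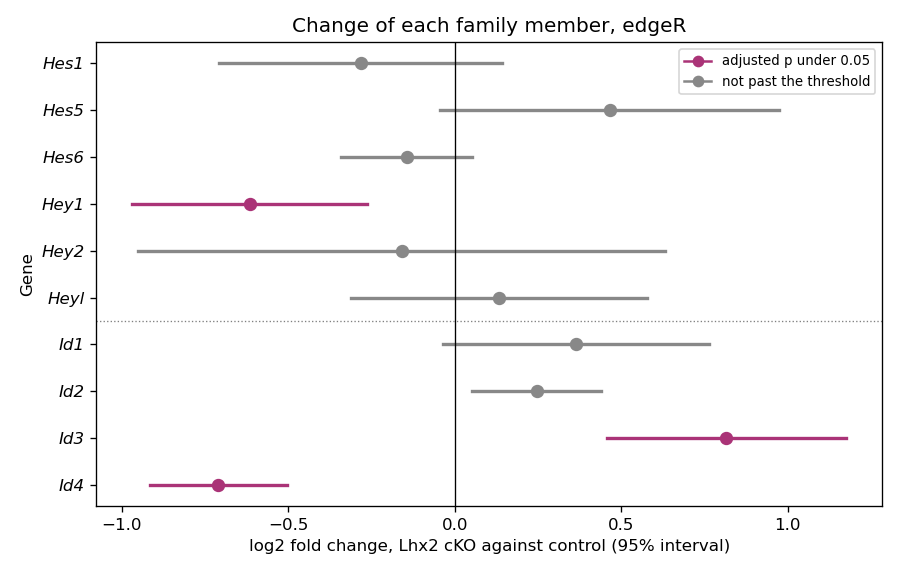
Log2 fold change for each gene, Lhx2 cKO over control, as points with 95% intervals from edgeR's quasi-likelihood fit. Hey1 and Id4 lie below 0 and Id3 above it with adjusted p under 0.05, while the intervals of 6 of the other genes include 0 and that of Id2 runs from 0.05 to 0.44.

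Hey1, a Notch-induced repressor, was at 11.4 and 12.3 CPM in control, with 7.74 and 7.71 CPM in Lhx2 cKO (means 11.8 ± 0.637 and 7.72 ± 0.0215, SD, n = 2). Both Lhx2 cKO libraries were below both control libraries, at 65.2% of the control mean. The log2 fold change was -0.62 (SE 0.175, adjusted p 0.00873 in edgeR). The call rested in part on control 2, the higher control library: without it the value was -0.56 with an adjusted p of 0.0651 in edgeR.

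Hes1, the Notch target most widely used across tissues, was at 7.38 and 6.72 CPM in control, against 5.54 and 6.05 CPM in Lhx2 cKO. Its groups did not overlap, yet the log2 fold change of -0.28 (95% interval -0.71 to 0.14) did not pass the threshold (adjusted p 0.374 in edgeR). Hes5, which with Hes1 maintains radial glia, was at 3.63 and 4 CPM in control, against 5.36 and 5.18 CPM in Lhx2 cKO. The Lhx2 cKO libraries were above the control libraries, but the log2 fold change of 0.47 (95% interval -0.04 to 0.97) also missed the threshold (adjusted p 0.198 in edgeR). These values rest on 88 to 122 counts of Hes5 per library. In the GENCODE M21 annotation 433 of the 1363 exon bases of Hes5 lie opposite Gm20421 on the other strand. The use of strand in counting is not given in the sources used here, so reads of this pair cannot be told apart. Hes1, with 126 to 179 counts per library at the 37.3 percentile of all genes, shares no exon bases with another M21 gene. Both levels are low for genes known from radial glia, which bears on every ratio that uses them, and the cause was not tested.

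Hes6 was at 161 and 136 CPM in control, against 133 and 136 CPM in Lhx2 cKO. Control 1 was the high library, and control 2 lay next to Lhx2 cKO 2. The log2 fold change was -0.15 (95% interval -0.34 to 0.05, adjusted p 0.318 in edgeR), with -0.03 when control 1 was left out and -0.26 when control 2 was. Heyl, at 7.26 and 4.88 CPM in control and, in Lhx2 cKO, 7.12 and 6.18 CPM, overlapped between the groups (log2 fold change 0.13, 95% interval -0.31 to 0.58). Hey2, at 1.90 and 1.72 CPM in control and, in Lhx2 cKO, 1.41 and 1.83 CPM, did so too, and with 32 to 46 counts per library its interval was the widest of the family (-0.95 to 0.63).

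Id4, an inhibitor known from dividing cortical progenitors, had the smallest p of the family. It was at 60.4 and 60.3 CPM in control, against 36.4 and 37.4 CPM in Lhx2 cKO (means 60.4 ± 0.0855 and 36.9 ± 0.646, SD, n = 2), or 61.1% of the control mean. The log2 fold change was -0.71 (SE 0.102, adjusted p 8.39e-07 in edgeR), and it stayed between -0.73 and -0.69 when any library was left out. In M21, 171 of the 3849 exon bases of Id4 lie opposite other genes on the other strand, so a small share of its reads cannot be assigned for certain.

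Id3, a BMP-responsive Id gene of progenitors and vessels, moved the other way. It was at 7.01 and 6.60 CPM in control, against 12.2 and 11.8 CPM in Lhx2 cKO (means 6.81 ± 0.289 and 12 ± 0.267, SD, n = 2), or 176% of the control mean. Its log2 fold change was 0.82 (SE 0.178, adjusted p 6.71e-04 in edgeR), between 0.77 and 0.85 with any library left out.

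Id1, the classical BMP response gene, was at 8.04 and 5.80 CPM in control, against 9.36 and 8.45 CPM in Lhx2 cKO. Both Lhx2 cKO libraries were above both control libraries, but the control libraries differed by more than the gap between groups, and the log2 fold change of 0.36 (95% interval -0.04 to 0.76) did not pass (adjusted p 0.2 in edgeR). Without control 1 it was 0.61 and without control 2 it was 0.15. Id2, which is also expressed in cortical neurons, was at 200 and 205 CPM in control, against 231 and 250 CPM in Lhx2 cKO. Its log2 fold change of 0.25 (95% interval 0.05 to 0.44) had an adjusted p of 0.0611 in edgeR. Adjusted p for Id2 ran from 0.0454 with the replicate number as a block to 0.0904 over the alternatives that kept all libraries.

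Ratios between members within a library do not depend on how libraries are scaled. Per kilobase, there were 0.249 and 0.235 Id3 counts for each Id4 count in control, against 0.718 and 0.679 in Lhx2 cKO, a ratio 2.88 times as high. Id1 per Id4 was 0.442 and 0.319 in control, against 0.853 and 0.75 in Lhx2 cKO. Id2 per Id4 was 5.22 and 5.38 in control, against 10 and 10.6 in Lhx2 cKO. All 3 ratios to Id4 were therefore higher in both Lhx2 cKO libraries than in either control library, and the share of Id4 in the per-length Id level went from 14.4% and 14.5% to 7.96% and 7.70%. Among the Notch-driven genes, Hes5 per Hes1 was 0.735 and 0.89 in control, against 1.45 and 1.28 in Lhx2 cKO, and Hes5 per Hey1 was 0.764 and 0.78 in control, against 1.66 and 1.61 in Lhx2 cKO. Hes5 thus stood below Hes1 and Hey1 in each control library and above both in each Lhx2 cKO library. The pairs were picked after the values were seen, and with 2 libraries against 2 an exact two-sided permutation test cannot give a p below 0.333, so these ratios are descriptions.

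**Figure D3:**
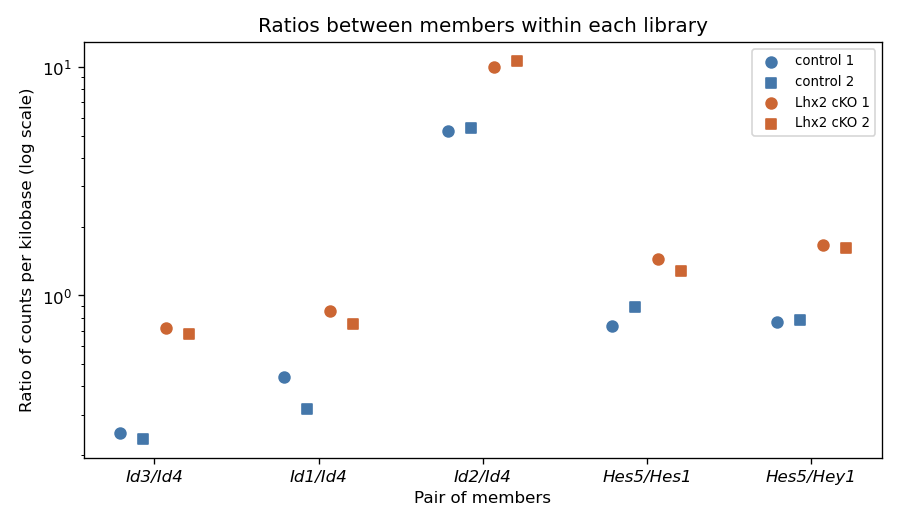
Ratios of counts per kilobase between pairs of members within each library, on a log axis, with control in blue and Lhx2 cKO in orange. In each of the 5 pairs both Lhx2 cKO libraries lie above both control libraries, with Id3/Id4 at 0.249 and 0.235 against 0.718 and 0.679.

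On the Notch side upstream of Hes and Hey, the main receptor of radial glia was lower while individual ligands went in different directions. Of 4 receptor genes, Notch1 fell, from 92.5 and 83.3 CPM to 54.2 and 52.4 CPM (-0.72 on the log2 scale with an SE of 0.0996 and an adjusted p of 3.9e-07 in edgeR), and the other 3 did not pass. Of 5 ligand genes, Dll1, carried by cells that are leaving the progenitor state, fell by 0.50 on the log2 scale, and Jag1 (0.71) and Dll4 (0.66), the latter a ligand of endothelial cells, rose. Dll4 was at 8.66 and 8.96 CPM in control, while Lhx2 cKO 1 had 11.4 and Lhx2 cKO 2 had 16.5 CPM, and leaving out Lhx2 cKO 2 gave 0.37, not called. Of 10 genes for cleavage and transduction, Rbpj (-0.30) and its coactivator Maml1 (-0.42) fell and the protease gene Adam10 (0.27, adjusted p 0.0497 in edgeR) rose. Maml1 was at -0.29 and not called without control 1, and Rbpj was at -0.23 without control 2, -0.28 without Lhx2 cKO 1 and -0.33 without Lhx2 cKO 2, each time not called. Adam10 lost its call with RLE size factors (adjusted p 0.0553), library totals (0.0575), no filter (0.0502) and DESeq2 (0.112), and without control 1 (log2 fold change 0.13) or Lhx2 cKO 2 (0.15), while without control 2 it was at 0.42.

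Of 10 modulators and feedback genes, 4 fell and 2 rose. Nrarp, a Notch target that feeds back on the pathway, fell from 8.54 and 7.04 CPM to 4.31 and 3.05 CPM (-1.08 on the log2 scale with an SE of 0.234 and an adjusted p of 5.80e-04 in edgeR), which was a larger estimate than that of any Hes or Hey gene. The Fringe genes, whose enzymes add sugars to Notch, went in opposite directions, with Mfng at -0.56 (called lower) and Lfng at 0.60 (called higher). Numbl, of the Numb family of Notch antagonists, fell by 0.50 on the log2 scale. Over the 4 Notch lists 13 of 29 genes were called, 5 higher and 8 lower, beside 20.8% of all genes.

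On the BMP side, the ligand genes were thinly covered, and the genes between ligand and Id moved in different directions. Of 8 ligand genes listed, 2 were found in the count table, Bmp7 and Gdf5, at 3.93 and 1.34 CPM in control, and neither passed. Of 8 receptor genes, the type I receptor gene Acvr1 (-0.52) and the type II receptor gene Acvr2b (-0.47) fell, and Acvr2a (0.29) and the endothelial coreceptor gene Eng (0.42) rose. Eng was at 0.34 without control 2 and 0.32 without Lhx2 cKO 2, not called in either fit. Acvr2a was at 0.20 without control 1 and 0.17 without Lhx2 cKO 2, not called, and DESeq2 (adjusted p 0.0898) and library totals (0.0588) also ended its call. None of the 3 Smad genes tested (Smad1, Smad4 and Smad5, the carriers of the BMP signal) was called in edgeR, DESeq2 or limma-voom, and in edgeR 1 had an unadjusted p under 0.05 (Smad4, -0.25, p 0.0185).

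Among 13 BMP inhibitors and feedback genes, 2 fell, 2 rose and 9 did not pass. Smad6, for an inhibitory Smad, fell from 7.88 and 6.32 CPM to 2.77 and 1.87 CPM (-1.61 on the log2 scale with an SE of 0.266 and an adjusted p of 1.1e-05 in edgeR), so it moved opposite to Id3. Smad7, for another inhibitory Smad, overlapped between the groups (0.04 on the log2 scale) and was not called. The secreted antagonist gene Grem1 rose from 2.72 and 1.96 CPM to 5.93 and 5.92 CPM (log2 fold change 1.34), and Bambi, which encodes a decoy receptor, rose by 0.99 on the log2 scale. Grem1 and Bambi thus had the direction of Id3. Chrd, for the antagonist chordin, fell by 0.32 on the log2 scale, with values of -0.27 without control 2 and -0.27 without Lhx2 cKO 2 that were not called, as with DESeq2 (adjusted p 0.0731). Atoh8, listed as a BMP target gene, was at 1.26 CPM in control and did not pass. Over the 5 BMP lists 8 of 27 genes were called, 4 higher and 4 lower, beside 20.8% of all genes called, 11.6% higher and 9.17% lower.

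In the E protein, proneural and TLE lists every called gene was lower. Beside them, 20.8% of all genes were called, 11.6% higher and 9.17% lower, and lists this small carry no test. All 3 E protein genes, the binding partners that Id proteins sequester, fell: Tcf4 from 1546 and 1548 CPM to 1166 and 1020 CPM (-0.50 on the log2 scale with an SE of 0.114 and an adjusted p of 0.00107 in edgeR), Tcf3 by 0.44 and Tcf12 by 0.30 on the log2 scale. Tcf12 was not called with any library left out, with values from -0.33 (Lhx2 cKO 1 left out) to -0.27 (Lhx2 cKO 2 left out). Of 7 proneural and neuronal factors, which Hes proteins repress and E proteins assist, Neurog1 (-2.38), Neurog2 (-0.43) and Neurod6 (-0.32) fell and the other 4 did not pass. Neurog2 was at 118 and 117 CPM in control, against 87.2 and 86.9 CPM in Lhx2 cKO. Neurod6 lost its call without control 1 (-0.28), Lhx2 cKO 1 (-0.32) or Lhx2 cKO 2 (-0.33). Of 6 TLE corepressor genes Tle1 fell (-0.36), with -0.29 without control 2 and -0.31 without Lhx2 cKO 1 not called. Of 6 other Hes-related repressors 2 were found in the count table, and Bhlhe40 rose (0.70, adjusted p 0.0348 in edgeR) from 3.79 and 3.72 CPM to 6.64 and 5.57 CPM. Bhlhe40 was not called with DESeq2 (adjusted p 0.0798) or with any library left out, where its value ran from 0.57 to 0.82.

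**Figure D4:**
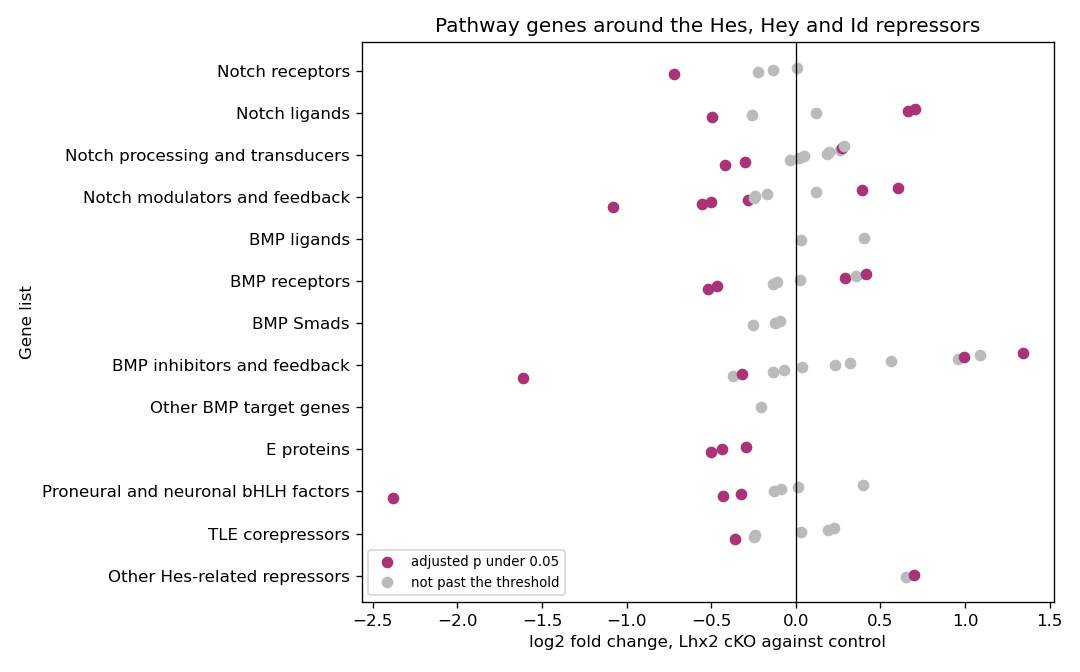
Log2 fold change, Lhx2 cKO over control, for each tested gene of the Notch, BMP and partner lists, coloured where the adjusted p was under 0.05, with points of a row spread vertically only to keep them apart. The called genes of the Notch and BMP lists lie on both sides of 0, while the 3 E protein genes lie between -0.50 and -0.30.

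Markers of several cell types also differed between the groups, and their counts stand beside 20.8% of all genes called, 11.6% higher and 9.17% lower. The radial glia list had 5 of 10 genes called lower and 1 higher, with summed CPM of 1381 and 1539 in control beside 1224 and 1215 in Lhx2 cKO, and Pax6 and Sox9 at -1.24 and -0.73 on the log2 scale. The list was mixed: Slc1a3 was called higher (0.27, but 0.13 without control 1, 0.30 without Lhx2 cKO 1 and 0.24 without Lhx2 cKO 2, not called, nor with DESeq2 or library totals), the libraries of Vim (0.20) and Fabp7 (0.16) also lay above control, and much of the lower sum came from Ptprz1, with means of 613 and 426 CPM. Intermediate progenitor genes were called lower in 5 of 8 cases and higher in 0, and their summed CPM was 1059 and 1060 in control beside 681 and 703 in Lhx2 cKO. Both lists had the direction of Id4 and Hey1. Neuron genes were mixed, with 2 of 8 called higher and 1 lower. Their summed CPM was 4191 and 4158 in control against 4452 and 4735 in Lhx2 cKO. Endothelial genes were called higher in 7 of 10 cases and lower in 0, with Cldn5 at 0.70 and Cdh5 at 0.73. Their sums were 201 and 239 CPM in control against 297 and 343 in Lhx2 cKO, the direction of Id3, Dll4 and Eng. The other members known from vessels did not share it as a set. Hey1 was called lower, Hey2 and Heyl overlapped between the groups, and Id1 lay above control without passing. Astrocyte genes (5 of 7 higher, 0 lower), oligodendrocyte precursor genes (5 of 6 higher, 0 lower) and microglia genes (8 of 8 higher) had the direction of the endothelial list, with sums at 175% to 230% of the control mean. Much of the higher astrocyte sum came from Sparcl1, with means of 113.5 CPM in control and 233.9 in Lhx2 cKO. Libraries of 1 of the 7 astrocyte genes and 1 of the 6 precursor genes overlapped between the groups. Cajal-Retzius genes were higher too (4 of 5 called higher, sums at 144% and 184%). Most of that sum was Reln, with means of 274.4 CPM in control and 441.1 in Lhx2 cKO, though the libraries of all 5 genes lay above control. The hem and choroid plexus list, with 2 of 8 genes found in the count table, was higher as well (1 called higher, Rspo2 at 2.12, sums at 258% and 347%). Interneuron sums were also higher (129% and 125%, 2 of 7 genes called higher), largely through Sst, with means of 42.33 and 89.15 CPM. The libraries of 3 of the 7 interneuron genes overlapped between the groups. Red blood cell genes (5 of 6 lower, 1 higher, sums at 77.3% and 68.9%) had the direction of Id4 and Hey1. Meningeal fibroblast sums were also lower (65.9% and 64.3%), but through Col1a1, the 1 of 4 genes called, with means of 24.4 and 3.05 CPM. The median log2 fold change of that list was 0.08, so the list as a whole was not lower. Mural cell genes had 1 of 5 called lower and 0 higher, with sums of 147 and 152 CPM against 128 and 140, and the call, of Rgs5, was lost without control 2 (-0.32) and without Lhx2 cKO 2 (-0.34). No tested marker of any list was at 0 counts in any library. This was nearly set in advance, since the count table held no gene with a total under 102 counts and lacked several listed markers. The part of these cell types in the changes of Hey1, Id3 and Id4 was not tested.

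**Figure D5:**
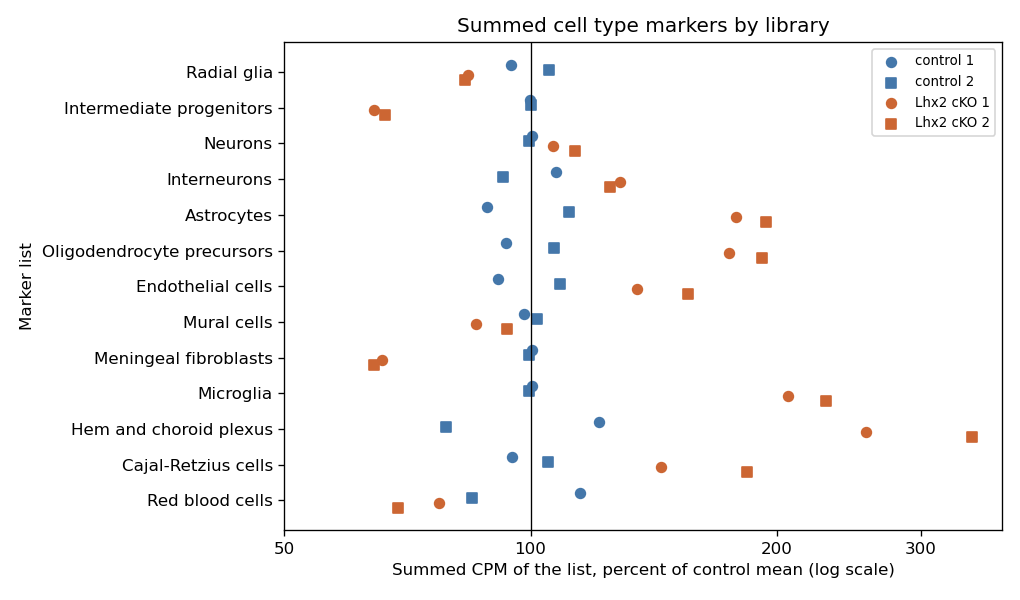
Summed CPM of each cell type marker list in each library, as a percent of the mean of the 2 control libraries on a log axis, with control in blue and Lhx2 cKO in orange. Radial glia sums are at 83.2% and 83.8% in Lhx2 cKO, intermediate progenitors at 64.3% and 66.4%, and endothelial cells at 135% and 156%.

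The genes nearest in pattern were sought for the member of smallest p in each arm, among 9141 genes averaging 10 CPM or more, by the root mean square difference of log2 CPM centred on each gene's own mean over the 4 libraries. For Hey1 these were Setbp1 (0.0219), Rif1 (0.0244) and Golim4 (0.0247), with log2 fold changes of -0.57, -0.58 and -0.60. For Id4 they were Pkdcc (0.0129), Mad2l1 (0.0176) and Stk39 (0.0239), with log2 fold changes of -0.71 each. With 4 libraries in 2 groups, this likeness mostly records an equal difference between the groups.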

How the data were processed

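RNA-seq of polyadenylated RNA was analysed for 2 control and 2 Lhx2 cKO libraries, grouped by their titles. The authors deposited raw read counts per gene, gene length in bases, and their own log2 fold change, mean log2 CPM, p-value, adjusted p-value and its -log10. Trim Galore, Subread, featureCounts, edgeR and mm39 are named in the submitters' processing notes. The annotation and strand setting are not given in the sources used here. The deposited gene lengths equalled the merged exon lengths of GENCODE M21 (GRCm38) for all 10 members. The lowest total of any gene in the count table was 102 counts over the 4 libraries. Shares and percentiles of all genes therefore refer to genes with at least that total.

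Counts were tested with edgeR 4.0.16 in R 4.3.3: TMM, filterByExpr (minimum count 10), glmQLFit and glmQLFTest without covariates, two-sided, Benjamini-Hochberg over 13288 genes. SEs were derived from the fold change and the F statistic. The code was checked on simulated counts. The floor of 3 counts covers counting error only. The 95% intervals of log2 fold changes come from the quasi-likelihood fit and include its estimate of the spread between libraries. For Hey1, Id3 and Id4 the authors' deposited table gives log2 fold changes of -0.63, 0.81 and -0.72, with adjusted p of 0.00606, 2.47e-04 and 2.52e-09.

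Alternatives were RLE, upper-quartile or total scaling, no filter, a mean count of at least 50, DESeq2 1.42.0, limma-voom (limma 3.58.1), the replicate block, and leaving out each library. Members and gene lists were chosen with earlier results of these data known. The named genes were Lhx2, all members, up to 4 called genes per pathway list and up to 2 per marker list by smallest p, and the 3 nearest in pattern to the member of smallest p in each arm. Genes named outside this rule (Smad1, Smad4, Smad5, Smad7, Bmp7, Gdf5, Atoh8, Slc1a3, Vim, Fabp7 and Ptprz1) were chosen after their values were seen. Smad7 was not followed under the alternatives.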

Additional observations from a re-analysis of the deposited data

How the results depend on the processing

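Id3 and Id4 kept their direction and call under all 12 alternatives, and Hey1 under all but 1. The counts of called Hes and Hey genes ranged from 0 to 1 with 1 library left out, the 0 arising without control 2 in edgeR, where Hey1 had an adjusted p of 0.0651. The count of called Id genes was 2 throughout except with the replicate block, where Id2 passed (adjusted p 0.0454) and it was 3. Calls over all genes ranged from 1633 to 2396 with 1 library left out, 1633 without Lhx2 cKO 2 and 1790 without control 1, and from 2170 (DESeq2) to 2879 (upper-quartile factors) otherwise. In these fits the lone library of a group is assumed to vary like the other group's, and they rest on fewer samples. The labels do not say whether a replicate number pairs libraries across the groups. The deviations of replicate 1 from replicate 2 had a correlation of 0.001 between the groups across genes. With so few libraries this value cannot settle whether they were paired. With the block 2874 genes were called, and of the members it changed only the call of Id2. Directions reversed for Heyl without control 2 and for Hey2 without Lhx2 cKO 1, neither of them called. With 1 library left out Heyl ranged from -0.126 to 0.434 and Hey2 from -0.365 to 0.016. The cause was not tested. Medians ranged from -0.258 to -0.057 for Hes and Hey genes and from 0.207 to 0.41 for Id genes with 1 library left out. Of 802 values under alternatives for the other named genes, 45 lost their call and 4 reversed. The reversals were of genes not called: with 1 library left out Atoh8 ranged from -0.683 to 0.154 and Bmp7 from -0.113 to 0.173. Depth limits Hey2 most.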
